A study of Mus musculus with 2 samples.

Results

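Barx1, Tlx1, Nkx2-5, Nkx2-3, Isl1, Foxf1 and Tcf21 are transcription factors known from the mesenchyme of the stomach and of the spleen primordium, and their RNA was followed here in single cells of the mouse aorta-gonads-mesonephros (AGM) region. They are 7 of the 31053 genes counted and 7 of the 14988 genes with at least 100 unique molecular identifiers (UMIs, each standing for 1 captured RNA molecule) in the cells of both libraries together, so all 7 members passed that filter. They were chosen from measured values, namely their detection in the same WT cells and their near absence or retention in KO cells. Those values are therefore descriptions, and they are no evidence that these genes differ from others.

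Whole AGMs of E11 embryos were dissociated with collagenase and processed with the 10x Chromium 3′ v3 chemistry, with 1 library from PDGFRB +/+ (WT) embryos and 1 from PDGFRB -/- (KO) embryos, each loaded to recover 7000 cells. The KO allele removes PDGFRβ, a receptor of perivascular cells, from every cell of the embryo, and the mice that carry it were kept as heterozygotes on a C57BL/6J background. The number of embryos in a library was not given in the sources used here. With 1 library per genotype there is no replicate, so no test was made, the 95% intervals in parentheses cover counting error only, and genotype, embryo, sex and library cannot be told apart.

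Barcodes with at least 2000 UMIs and under 10% mitochondrial UMIs were used as cells, 8253 in WT with a median of 13321 UMIs and 8165 in KO with a median of 12391, and 20 barcodes were used in both libraries. Levels are given as CPM, which is how many of every 1000000 UMIs in a group of cells came from the gene. Pdgfrb, the targeted gene, fell from 43.1 CPM (42.1 to 44.2) in WT to 7.09 (6.66 to 7.55) in KO, and from 33.8% to 9.81% of cells with a UMI, and counts from the 3′ end do not show which part of the gene was removed. The libraries also differed in sex, as Xist stood at 793 CPM in WT and 0.415 in KO, while the Y-linked Ddx3y stood at 0.0067 in WT and 56.7 in KO. Some clusters carried the markers of endothelium (133 WT and 112 KO cells) and of coelomic or gonadal cells (277 WT and 159 KO cells over 2 clusters), while no cluster could be named from splanchnic mesenchyme markers. The words gastric and splenic therefore describe what these genes are known for, and not a cell type named in these data.

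In the embryo, Barx1 is a homeobox factor of stomach mesenchyme that lets the overlying epithelium take a gastric fate by dampening Wnt signaling, and it also acts on spleen growth. Tlx1, also called Hox11, is required for the spleen to form, and Nkx2-5, best known from the heart, marks the spleen primordium and the pyloric sphincter, while Nkx2-3 is its close relative in gut and spleen mesenchyme. Isl1 is a LIM homeobox factor of pylorus, heart, limb and neurons, Foxf1 is a forkhead target of hedgehog signaling in splanchnic mesoderm, and Tcf21 is a basic helix-loop-helix factor of visceral mesenchyme and of the spleen anlage.

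The upstream sequences of the 3 members that were nearly absent in KO and of the 1 that was higher there are shown because the counts of these 4 genes carry the contrast between the libraries. Each line holds the 200 bases from 250 to 51 bases before the RefSeq start site (GRCm38.p6), read 5′ to 3′ on the strand of the gene, with CG dinucleotides in capitals.
Barx1: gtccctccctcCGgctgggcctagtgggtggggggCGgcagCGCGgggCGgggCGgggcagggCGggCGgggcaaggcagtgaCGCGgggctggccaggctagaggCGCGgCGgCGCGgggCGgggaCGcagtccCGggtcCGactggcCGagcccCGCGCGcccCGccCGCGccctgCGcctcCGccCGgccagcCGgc
Tlx1: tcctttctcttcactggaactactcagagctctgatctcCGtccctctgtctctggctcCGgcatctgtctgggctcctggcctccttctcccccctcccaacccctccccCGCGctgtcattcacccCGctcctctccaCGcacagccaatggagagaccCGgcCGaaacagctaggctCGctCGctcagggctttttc
Nkx2-5: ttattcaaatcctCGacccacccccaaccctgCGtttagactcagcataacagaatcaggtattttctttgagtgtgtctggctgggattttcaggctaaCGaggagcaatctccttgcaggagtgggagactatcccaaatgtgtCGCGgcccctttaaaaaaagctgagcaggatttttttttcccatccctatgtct
Nkx2-3: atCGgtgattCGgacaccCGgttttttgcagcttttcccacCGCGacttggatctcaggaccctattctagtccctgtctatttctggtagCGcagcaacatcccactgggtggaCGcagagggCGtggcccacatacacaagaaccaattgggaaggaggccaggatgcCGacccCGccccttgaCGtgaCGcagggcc
These windows lie at chr13:48662786-48662985 (plus strand) for Barx1, chr19:45150465-45150664 (plus strand) for Tlx1, chr17:26841616-26841815 (minus strand) for Nkx2-5 and chr19:43612075-43612274 (plus strand) for Nkx2-3. The Nkx2-5 window precedes the RefSeq start but lies inside the span that GENCODE M21 gives the gene, whose longest transcript starts further upstream. They did not share one base composition, since G and C made up 85.0% of the Barx1 window with 30 CG dinucleotides, 62.0% for Tlx1 with 10, 58.5% for Nkx2-3 with 12 and 46.5% for Nkx2-5 with 5, beside medians of 51.5% and 4 over all 32851 promoter windows of the table. In the windows of Isl1 and Tcf21 the values were 73.5% with 28 and 54.5% with 4, and 6 of the 7 members had an entry. The letters AAGTG, part of the motif of NKX2 factors, stood in 34.2% of all windows on either strand, and TAATTA (homeobox factors), GTAAACA (forkhead factors), CAGCTG (an E-box, palindromic) and TATAAA in 4.19%, 2.58%, 10.3% and 9.14%. Of the 6 windows, 1 held CAGCTG (Isl1) and 0 held any of the other 4 words.

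In the annotation (GENCODE M21, GRCm38), Barx1 (ENSMUSG00000021381) lies on chromosome 13 from 48662998 to 48666507, Tlx1 (ENSMUSG00000025215) on chromosome 19 from 45150680 to 45156943, Nkx2-5 (ENSMUSG00000015579) on chromosome 17 from 26838664 to 26845009 and Nkx2-3 (ENSMUSG00000044220) on chromosome 19 from 43612325 to 43615892. Isl1 (ENSMUSG00000042258) lies on chromosome 13 from 116298281 to 116309689, Foxf1 (ENSMUSG00000042812) on chromosome 8 from 121084386 to 121088144 and Tcf21 (ENSMUSG00000045680) on chromosome 10 from 22817281 to 22820174. Tlx1 and Tcf21 each overlap an antisense gene (Tlx1os and Gm10824). Foxf1 overlaps Gm20388 on its own strand, so reads there may not have been assigned to Foxf1 and its counts are uncertain to that extent.

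The first comparison asked how the RNA of the 7 members differed between the libraries. Barx1, Tlx1 and Nkx2-5 were nearly absent from KO, Nkx2-3 was higher, Tcf21 and Isl1 were moderately lower, and Foxf1 was close to equal. Barx1 had 5276 UMIs in 663 WT cells (8.03%) and 103 UMIs in 92 KO cells (1.13%), which is 35.1 CPM (34.2 to 36.1) against 0.724 (0.591 to 0.878). Its most strongly labelled WT cell held 135 UMIs and its most strongly labelled KO cell 5. The log2 ratio of KO over WT was -5.60 (-5.90 to -5.32).

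Tlx1 had 654 UMIs in 156 WT cells and 42 UMIs in 27 KO cells, at 4.35 CPM (4.03 to 4.70) and 0.295 (0.213 to 0.399), with a log2 ratio of -3.88 (-4.37 to -3.43). Nkx2-5 had 274 UMIs in 98 WT cells and 4 UMIs in 3 KO cells, at 1.82 CPM (1.61 to 2.05) and 0.0281 (0.00766 to 0.0720), with a log2 ratio of -6.02 (-7.91 to -4.65). For these 3 genes the WT and KO intervals stood far apart. Among the 14988 genes, ordered from the lowest ratio, Nkx2-5 was at place 3, Barx1 at 4 and Tlx1 at 9, with Xist at place 1 and the histone gene Hist1h2ap (786 and 21.9 CPM) at place 5.

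Nkx2-3 moved the other way. It had 834 UMIs in 296 WT cells (3.59%) and 1960 UMIs in 542 KO cells (6.64%), at 5.55 CPM (5.18 to 5.94) and 13.8 (13.2 to 14.4), with a log2 ratio of 1.31 (1.19 to 1.43). It stood at place 147 from the highest ratio. The gene that is the closest relative of Nkx2-5 in this set was therefore the only member with a higher CPM in KO.

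Tcf21 was at 76.2 CPM (74.8 to 77.6) in WT and 46.8 (45.6 to 47.9) in KO, a log2 ratio of -0.70 (-0.75 to -0.66), with 2187 and 1590 cells. Isl1 was at 91.7 CPM (90.1 to 93.2) and 70.2 (68.8 to 71.6), a log2 ratio of -0.39 (-0.42 to -0.35), with 2367 and 1869 cells. Foxf1 was at 35.1 CPM (34.1 to 36.0) and 34.0 (33.0 to 35.0), with 1894 and 1599 cells, and its log2 ratio of -0.045 had an interval that reached from -0.10 to 0.011. Across all genes the median log2 ratio was 0.063, and 2.17% of the 14988 genes were at least 2-fold lower in KO and 2.14% at least 2-fold higher, while 0.107% were at least 8-fold lower. Of the members, 3 were at least 8-fold lower and 1 at least 2-fold higher, counts that the choice of the members fixed. Since whole regions were dissociated, fewer cells of a kind and less RNA per cell cannot be told apart in these sums. Clusters of WT cells do not all have KO cells of the same number, and a smooth muscle-like cluster with Krt8, Lum and Wnt2 among its leading genes held 541 WT and 35 KO cells.

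**Figure D1:**
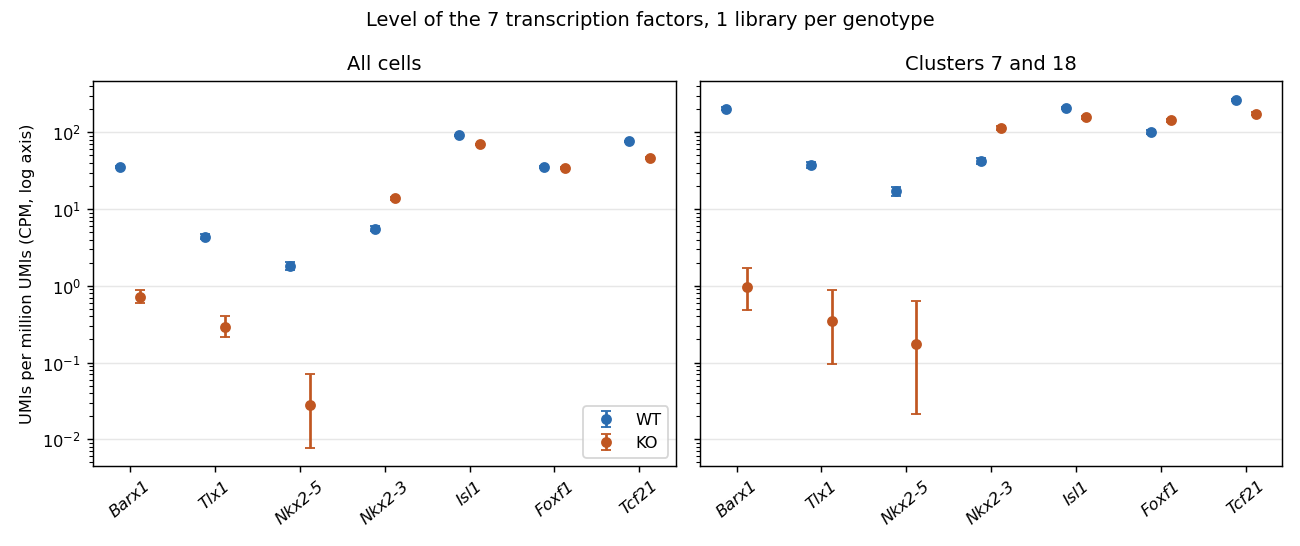
Level of each factor in WT (blue) and KO (orange) in all cells (left) and in clusters 7 and 18 (right), in CPM on a log axis, with bars for the 95% counting interval of 1 library. Barx1, Tlx1 and Nkx2-5 drop from 203, 37.8 and 17.0 CPM in WT to under 1 in KO in the right panel, while Nkx2-3 rises from 42.6 to 115 CPM.

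The second comparison asked in which cells the members lay, with clusters made from both libraries together without the members, Pdgfrb, sex-linked genes or any listed gene among the clustering genes. Of 36 clusters, Barx1 was highest in WT in cluster 18 at 304 CPM (285 to 325), followed by cluster 7 at 174 (166 to 182) and the coelomic or gonadal-like cluster 23 at 161 (152 to 172). The intervals of clusters 7 and 23 overlapped, and that of cluster 18 did not overlap theirs. Cluster 7 alone held 33.7% of the WT UMIs of Barx1, 65.4% of those of Tlx1, 74.1% of those of Nkx2-5 and 52.5% of those of Nkx2-3. Clusters 7 and 18 were not named from markers, and they were led by Nkx2-3, Barx1, Lgi2 and Tlx1 (cluster 7) and by Nr1h5, Barx1 and Nkx2-3 (cluster 18), although the members had no part in making them.

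Tlx1 followed the order 7, 18, 4 in WT, at 41.8 CPM (37.9 to 45.9), 24.2 (19.0 to 30.5) and 18.9 (13.6 to 25.6), of which the last 2 overlapped. Nkx2-5 stood at 19.8 CPM (17.2 to 22.7) in cluster 7 and at 7.30 (4.58 to 11.1) in cluster 18. Nkx2-3 did not differ between clusters 7 and 18 beyond counting error, at 42.8 CPM (38.9 to 47.0) and 42.2 (35.2 to 50.2), and came next in the endothelial-like cluster 24 at 11.3 (8.22 to 15.1). These 3 genes thus shared a narrow range of clusters in WT, and cluster 4 was a cluster of low depth, with a median of 3096.5 UMIs.

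Isl1, Foxf1 and Tcf21 were spread over more kinds of cells. Isl1 was highest in cluster 19 (led by Cldn11, Gata2 and Pnliprp1) at 441 CPM (414 to 470) in WT and 420 (394 to 448) in KO, and in the neuronal-like cluster 27 at 400 (379 to 422) and 390 (363 to 419), where the intervals of the libraries overlapped. It followed in cluster 2, led by Msx1, Lix1 and Dlx5, at 314 (305 to 323) and 271 (262 to 280). Foxf1 was highest in the sclerotome-like cluster 10, at 181 CPM (163 to 199) in WT and 97.6 (88.7 to 107) in KO, and next in the sclerotome-like cluster 5, at 123 (115 to 132) and 85.1 (79.3 to 91.2). Tcf21 was highest in cluster 19, at 352 CPM (328 to 378) and 252 (232 to 274), and then in clusters 7 and 9, at 274 (264 to 285) and 261 (249 to 273) in WT, which overlapped.

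Directions by cluster were taken where a member had at least 100 UMIs in both libraries together. Of 9 such clusters for Barx1, 9 had an interval below 0 for the log2 ratio of KO over WT. So had the 1 such cluster each for Tlx1 and Nkx2-5. All KO cells held only 103, 42 and 4 UMIs of these genes, so clusters passed through WT and the filter fixed these directions. The endothelial-like cluster did not pass, and there Tlx1 was at 2.25 CPM in WT and 7.24 in KO. Nkx2-3 was higher in KO in 4 of 4 clusters that passed, namely 5, 7, 18 and 23, of which 5 and 23 passed only with their KO UMIs. The endothelial-like cluster did not pass for Nkx2-3 either, and there it was not higher in KO. Its level there was 11.3 CPM (8.22 to 15.1) in WT and 8.34 (5.90 to 11.4) in KO, with overlapping intervals. Tcf21 was lower in 15 of 22 and higher in 1, Isl1 lower in 10 of 22 and higher in 1, and Foxf1 lower in 9 of 17 and higher in 3. The 3 clusters with more Foxf1 in KO were 7, 18 and 28, which are the 2 with most Barx1 and a cluster led by Gata5, Crhbp and Wnt2.

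**Figure D2:**
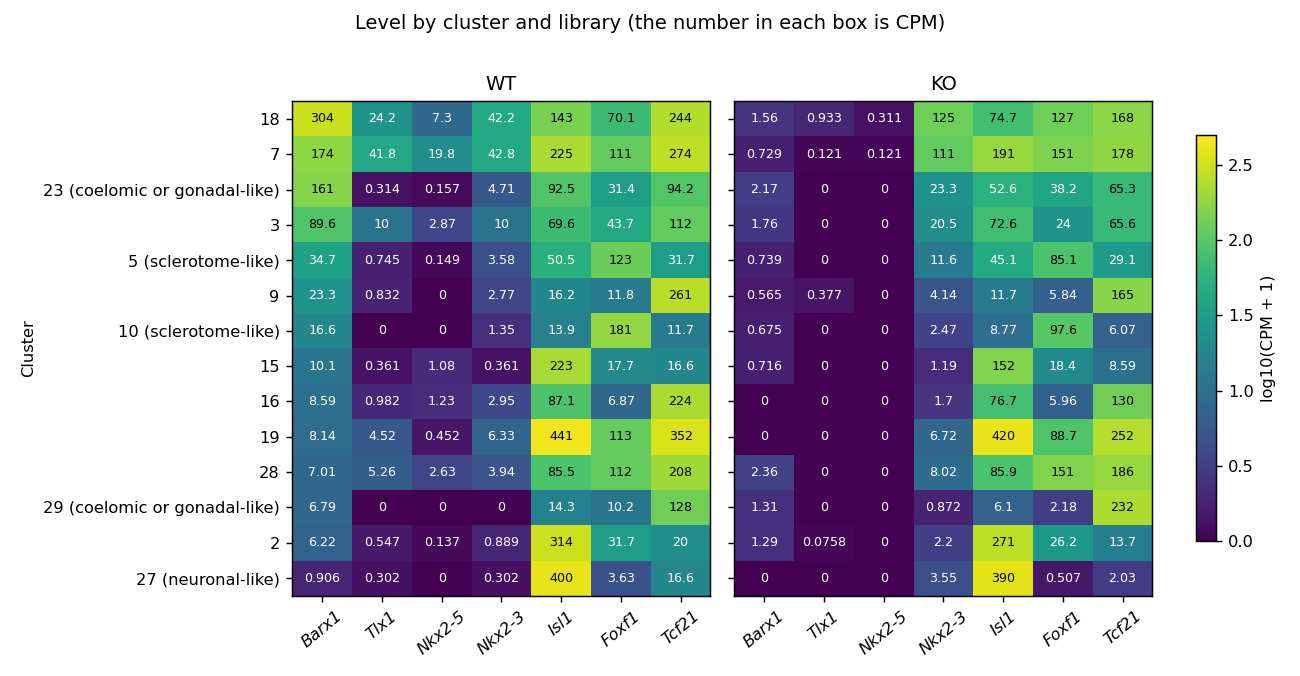
Level of the 7 factors in 14 clusters of at least 50 cells per library in which at least 1 member reached 100 CPM, WT on the left and KO on the right, with the number in each box in CPM and the color on a log10(CPM + 1) scale. The Barx1, Tlx1 and Nkx2-5 columns are bright or intermediate in clusters 18 and 7 of WT and dark in KO, whereas the Nkx2-3, Isl1, Foxf1 and Tcf21 columns keep their bright boxes.

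Clusters 7 and 18, which were the 2 with the highest WT level of Barx1, held 603 WT and 512 KO cells of like depth, with medians of 15075 and 15527 UMIs. As they were picked by that level, the WT value of Barx1 in them is high by choice. Within them Barx1 fell from 203 CPM (196 to 211) to 0.961 (0.480 to 1.72), with 214 WT cells (35.5%) and 7 KO cells (1.37%). Tlx1 fell from 37.8 CPM (34.6 to 41.3) to 0.349 (0.0952 to 0.895), in 79 and 3 cells. Nkx2-5 fell from 17.0 CPM (14.8 to 19.3) to 0.175 (0.0212 to 0.631), in 63 and 2 cells. The log2 ratios were -7.73 (-8.73 to -6.88), -6.76 (-8.64 to -5.39) and -6.60 (-9.66 to -4.73).

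In the same cells Nkx2-3 rose from 42.6 CPM (39.2 to 46.3) to 115 (109 to 121), a log2 ratio of 1.43 (1.29 to 1.57), and from 26.9% to 53.3% of cells. Foxf1 rose from 102 CPM (96.4 to 107) to 144 (137 to 151), a log2 ratio of 0.50 (0.40 to 0.61), although it was close to equal over all cells. Tcf21 fell from 267 CPM (259 to 276) to 175 (168 to 183), by 0.61 on the log2 scale, and Isl1 from 207 (199 to 215) to 158 (151 to 166), by 0.39. Among the 10433 genes with at least 100 UMIs there, 1.01% were at least 2-fold lower in KO and 1.09% at least 2-fold higher, with a median log2 ratio of 0.0089, and 3 of the 7 members were lower and 1 higher. Ordered from the lowest ratio, Xist came first and was followed by Barx1, Tlx1, Nkx2-5 and Kazald1.

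Smooth muscle markers moved with these clusters. All 6 of the list (Acta2, Tagln, Myh11, Actg2, Cnn1 and Rgs5) were detected in both libraries, and their summed level was 189 CPM in WT and 604 in KO, with 5 of 6 higher in KO (Acta2 60.3 and 380, Actg2 4.68 and 78.3, Myh11 0.755 and 13.5) and Rgs5 lower (75.5 and 32.8). Over all cells the sum went the other way, from 932 to 622 CPM. Summed levels were also taken for gut epithelium markers (11.6 and 12.9 CPM, with Foxa2, Shh and Cldn6 at 0 in WT and Foxa2 at 0 in KO), heart muscle markers (6.34 and 6.64, with Nppa at 0 in both and Myh6 at 0 in KO) and coelomic or gonadal markers (54.2 and 38.5, none at 0). Splanchnic mesenchyme markers summed to 120 CPM in WT and 207 in KO, sclerotome markers to 221 and 150 and erythroid markers to 1325 and 951. The part of these cell types in the differences of the members was not tested.

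The third comparison asked which members were found in the same WT cells. Over all 21 pairs, 20 were found together more often than in cells without the other gene, but cells with more UMIs show more genes of any kind. With each cell reduced to 2000 UMIs, 17 of 21 pairs were together more often, and the 4 that were not were those of Tlx1 and Nkx2-5 with Isl1 and Foxf1. The members were chosen for detection in the same WT cells, and the cells without a gene were of all kinds. No share was taken over other pairs of genes, so these counts describe the members only. Tlx1 and Nkx2-5 formed the closest pair. Of 98 WT cells with Nkx2-5, 71 (72.4%, 62.5 to 81.0%) also held Tlx1, against 1.04% of cells without Nkx2-5, and at 2000 UMIs the shares were 40.9% and 0.545%. Nkx2-3 was found in 64.3% (54.0 to 73.7%) of the cells with Nkx2-5 and Tcf21 in 89.8% (82.0 to 94.997%), against 2.86% and 25.7% of the cells without it.

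Barx1 cells looked different. Of the 663, 378 (57.0%, 53.1 to 60.8%) held Foxf1 and 402 (60.6%, 56.8 to 64.4%) held Tcf21, against 19.97% and 23.5% of cells without Barx1, and at 2000 UMIs the shares were 26.7% against 5.86% and 28.5% against 9.60%. Of the same cells, 43 held Tlx1 (6.49%) and 45 held Nkx2-5 (6.79%), against 1.49% and 0.698% of cells without Barx1. Foxf1 was less frequent in Tlx1 cells, with 1.19% at 2000 UMIs against 6.70% in cells without Tlx1, and for Isl1 the shares were 5.03% and 11.9%. In erythroid-like WT cells, which are not known to express these genes, a UMI of Barx1 was found in 2.41% of 748 cells (median 16743.5 UMIs), of Tlx1 in 0.267%, of Nkx2-3 in 0.535%, of Foxf1 in 4.95% and of Isl1 and Tcf21 in 7.09% each. Reduced to 2000 UMIs, as above, these cells held Barx1 in 0.526%, Tlx1 in 0.0462%, Nkx2-3 in 0.0505%, Foxf1 in 0.907%, Isl1 in 1.44% and Tcf21 in 1.62%. The source of these UMIs was not tested.

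**Figure D3:**
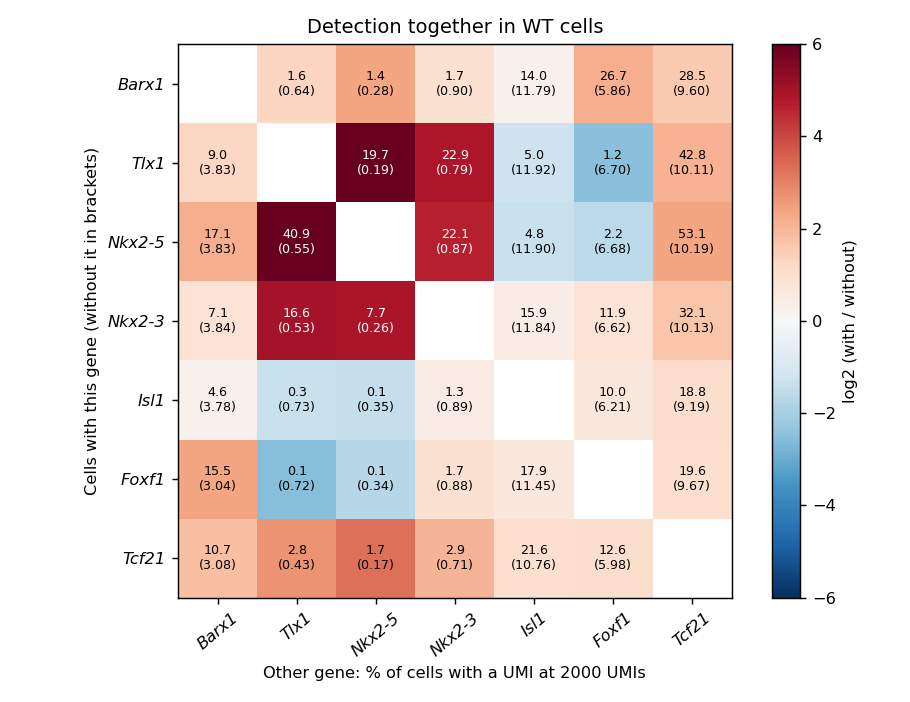
Percent of WT cells with a UMI of the gene in the column among cells with the gene in the row, with the percent among cells without it in brackets, each cell reduced to 2000 UMIs, and the color giving the log2 ratio of the percentages. The dark red boxes join Tlx1, Nkx2-5 and Nkx2-3, and the blue boxes are those of Tlx1 and Nkx2-5 with Isl1 and Foxf1.

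Sorting the WT cells by UMIs of Barx1, Tlx1 and Nkx2-5 gave 602 cells with Barx1 alone, 69 with Tlx1 alone, 9 with Nkx2-5 alone, 16 with Barx1 and Tlx1, 18 with Barx1 and Nkx2-5, 44 with Tlx1 and Nkx2-5, 27 with all 3 and 7468 with none. Nkx2-3 stood at 125 CPM (104 to 148) in the cells with all 3 and 112 (92.9 to 134) in those with Tlx1 and Nkx2-5, but at 5.66 (4.51 to 7.01) with Barx1 alone and 3.20 (2.90 to 3.52) with none. Tcf21 stood at 353 CPM (318 to 390), 325 (292 to 361), 120 (115 to 126) and 65.3 (63.9 to 66.7) in the same 4 groups. In both genes the cells with all 3 and the cells with Tlx1 and Nkx2-5 did not differ beyond counting error.

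Foxf1 had another order, at 91.8 CPM (86.9 to 96.8) with Barx1 alone, 21.7 (13.7 to 32.5) with Tlx1 and Nkx2-5, 9.30 (4.46 to 17.1) with all 3 and 29.2 (28.3 to 30.1) with none. The interval with Tlx1 and Nkx2-5 overlapped both of the last 2. Isl1 was at 95.3 CPM (90.4 to 100) with Barx1 alone and 92.4 (90.8 to 94.1) with none, whose intervals overlapped, and at 11.3 (5.84 to 19.7) with Tlx1 and Nkx2-5. It was highest with Barx1 and Nkx2-5, at 203 CPM (166 to 246). With Barx1 and Tlx1 it was at 113 (82.1 to 152) and with Nkx2-5 alone at 112 (61.0 to 187). With all 3 it was at 29.8 (20.4 to 42.0) and with Tlx1 alone at 52.9 (42.6 to 64.9). The groups were made from these cells, so the values describe them and are not a test.

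**Figure D4:**
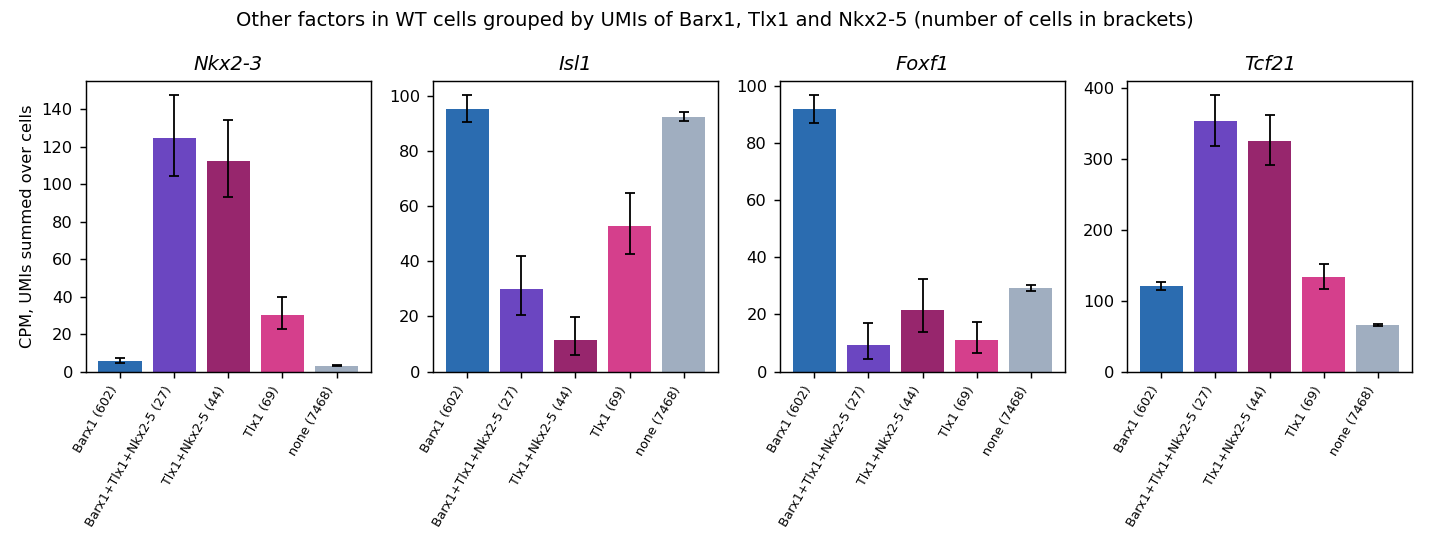
CPM of Nkx2-3, Isl1, Foxf1 and Tcf21 in WT cells grouped by which of Barx1, Tlx1 and Nkx2-5 had a UMI, with the number of cells in brackets and bars for the 95% counting interval; the 3 smallest groups are left out. Nkx2-3 and Tcf21 peak at 125 and 353 CPM in cells with all 3, whereas Foxf1 peaks at 91.8 CPM in cells with Barx1 alone.

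Heart muscle and gut epithelium markers were low in the WT cells with Nkx2-5 or Tlx1. In the 98 WT cells with Nkx2-5, Tnnt2, Myh6, Nppa and Myl2 were at 0, which is 4 of the 6 heart muscle markers, and the 6 summed to 3.60 CPM against 18.6 in all WT cells. Over all WT cells Nppa was at 0 too, and Myh6 and Myl2 were at only 0.280 and 0.400 CPM. The zeros of these genes therefore say little. Epithelial RNA was low too, with 4 of 6 gut epithelium markers at 0 in Tlx1 cells and a sum of 3.77 CPM against 16.1 in all WT cells. Low sums were not particular to these 2 lists. In the Tlx1 cells splanchnic mesenchyme markers summed to 48.3 CPM against 107 in all WT cells, smooth muscle markers to 305 against 932 and sclerotome markers to 120 against 370. Only 4 lists were higher there, namely endothelial (374 against 105), other blood (497 against 192), skeletal muscle (111 against 87.3) and pancreas (8.24 against 3.81). In the Nkx2-5 cells endothelial, other blood and skeletal muscle markers summed to 23.7, 4.32 and 105 CPM and splanchnic mesenchyme markers to 30.9. The part of these cells in the values of the members was not tested.

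Over the 7 clusters that each held at least 5% of the WT cells with Barx1, 453 cells with Barx1 were set beside 2494 without it. Each side was pooled over the clusters, so the mix of clusters was not held equal. Clusters 7 and 18 held 214 of the 453 cells with Barx1, among 603 WT cells. Foxf1 was at 103 CPM with Barx1 and 40.5 without (log2 ratio 1.35, 1.24 to 1.46), Tcf21 at 163 and 83.7 (0.96, 0.87 to 1.04), Nkx2-5 at 11.2 and 3.30 (1.76, 1.39 to 2.13), Tlx1 at 20.5 and 9.01 (1.19, 0.93 to 1.44) and Nkx2-3 at 20.7 and 11.02 (0.91, 0.67 to 1.15). Isl1 was lower in the cells with Barx1, at 117 and 183 CPM (-0.65, -0.74 to -0.56). Of the 6 other members, 5 were higher beside Barx1, of which 3 at least 2-fold. Among 11664 genes, 1.11% were at least 2-fold higher and 2.07% at least 2-fold lower. As the members were chosen for detection in the same WT cells, their counts describe them and are no evidence of an enrichment. The ratios also rested on the clusters used, and so did the depth of the cells compared. The median was 14118 UMIs with Barx1 and 11011.5 without. In the finer clusters it was 12498 and 3286. A cell without a Barx1 UMI cannot be called a cell without Barx1 RNA. The part of depth and of the mix of clusters in the ratios was not tested. With finer clusters the log2 ratio was 1.62 (1.45 to 1.79) for Foxf1 and 0.46 (0.35 to 0.57) for Tcf21, the intervals of Nkx2-5 (0.35, -0.027 to 0.73), Tlx1 (-0.13, -0.38 to 0.13) and Isl1 (-0.069, -0.23 to 0.090) included 0, and Nkx2-3 was lower beside Barx1 (-0.33, -0.59 to -0.076).

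The fourth comparison asked whether Barx1, Tlx1 and Nkx2-5 cells carried the receptor removed in KO. In WT, Pdgfrb had a UMI in 38.5% (34.7 to 42.3%) of the cells with Barx1 and in 33.4% (32.3 to 34.5%) of those without, at 42.0 CPM (39.0 to 45.2) and 43.3 (42.2 to 44.4), which overlap. The cells without Barx1 were of all kinds. Pooled over the 7 clusters used above, Pdgfrb was lower with Barx1, at 37.5 CPM against 49.9 without (log2 ratio -0.41, -0.57 to -0.25). In cells with Tlx1 it was at 61.9 CPM (54.7 to 69.9) against 42.6 (41.5 to 43.7) without, with Nkx2-5 at 57.6 (49.0 to 67.2) against 42.9 (41.8 to 43.9) and with Tcf21 at 53.8 (51.9 to 55.8) against 37.0 (35.8 to 38.3). Pdgfra, the related receptor, was at 184 CPM (178 to 191) in cells with Barx1 and at 104 (94.8 to 115) in those with Tlx1, against 139 (137 to 141) and 145 (143 to 147) in the cells without each gene. Cspg4, which encodes NG2, was at 5.59 CPM (4.51 to 6.84) with Barx1 and 8.12 (7.64 to 8.62) without. Pooled over the 7 clusters it was at 5.54 and 4.45 CPM, with an interval that included 0 (log2 ratio 0.31, -0.14 to 0.75). Most Barx1 cells therefore had no detected Pdgfrb UMI, at a depth that misses many molecules.

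The few Barx1 UMIs left in KO were spread widely. Of the 92 KO cells with Barx1, 86 held 1 UMI, and they lay in 23 clusters, with 17 cells in cluster 2. Cluster 7, which held 33.7% of the Barx1 UMIs of WT, held 5.83% of those of KO. Cells of the erythroid-like clusters of KO held Barx1, Tlx1, Nkx2-5 or Nkx2-3 in 0 of 220 cells, which allows a share of up to 1.36% by a limit of 3 counts and of up to 1.66% by the exact binomial interval. Tlx1 was concentrated in another place, since 33 of its 42 KO UMIs lay in 19 cells of the endothelial-like cluster 24. There it was at 2.25 CPM in WT and 7.24 in KO, a log2 ratio of 1.68 (0.59 to 2.93), opposite to clusters 7 and 18. The KO cells with Tlx1 had a median of 56535 UMIs, several times the library median of 12391, and without the endothelial-like clusters the log2 ratio of Tlx1 was -6.08.

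In all, 121 KO cells held a UMI of Barx1, Tlx1 or Nkx2-5, and 14 held 2 or more UMIs of one of them. RNA outside cells showed the same contrast, as barcodes of at most 100 UMIs that had no more than 100 UMIs in the other library either held 31.5 CPM of Barx1 in WT (63 UMIs) and 1.05 in KO (2 UMIs). Part of the KO counts lay on barcodes of the other library. Of the 21 Barx1 UMIs on KO barcodes of at most 100 UMIs, 8 lay on barcodes used as cells in WT. For all UMIs of such KO barcodes that share was 10.9%. Of the 39 Barx1 UMIs on KO barcodes of more than 100 and under 2000 UMIs, 26 lay on WT cells. Of the 103 in the KO cells used, 0 did. Counted by barcodes with over 100 UMIs in WT, the numbers were 19 of 21, 27 of 39 and 65 of 103. For Isl1 in KO they were 34 of 149, 89 of 1101 and 7140 of 9980, and for Nkx2-3 1 of 26, 10 of 263 and 1430 of 1960. In the KO cells used, the part for Barx1 was thus no larger than for these 2 genes.

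KO cells were found next to the WT cells with Barx1. Among the 30 nearest cells of each WT cell, by 30 principal components made without the members, KO cells were 29.3% for cells with Barx1, 22.3% with Tlx1 and 16.2% with Nkx2-5, beside 35.3% over all WT cells. The 2711 KO cells found near WT Barx1 cells held Barx1 at 0.930 CPM, against 314 in the WT cells themselves, and Nkx2-3 at 25.8 CPM, against 14.4. Foxf1 was at 43.9 and 84.2 CPM and Tcf21 at 66.8 and 139. The WT cells were picked for a Barx1 UMI and the KO cells were not. The WT level of Barx1 is therefore high by choice, beside 35.1 CPM over all WT cells. Foxf1 and Tcf21, often found with Barx1 in WT, carry the same choice. In clusters 7 and 18, Foxf1 was at 102 CPM in WT and 144 in KO. All 3 shares of KO cells rested on the setting, as 15 components gave 39.3%, 41.3% and 37.0% beside 39.8% over all WT cells.

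In KO, Nkx2-3 marked a group of cells with Foxf1 and Tcf21. Of 542 KO cells with Nkx2-3, 384 (70.8%, 66.8 to 74.6%) held Foxf1 and 368 (67.9%, 63.8 to 71.8%) held Tcf21, while of 296 WT cells with Nkx2-3, 133 (44.9%, 39.2 to 50.8%) held Foxf1 and 224 (75.7%, 70.4 to 80.5%) held Tcf21. At 2000 UMIs the shares with Foxf1 were 25.9% in KO and 11.9% in WT, while those with Tcf21 were 24.3% and 32.1%. In cells without Nkx2-3 the shares at 2000 UMIs were 5.25% in KO and 6.62% in WT for Foxf1. For Tcf21 they were 6.78% and 10.1%. Tlx1 was found in 30.4% of WT cells with Nkx2-3 and in 0.923% of those of KO, and Barx1 in 23.0% and 1.66%.

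The genes whose pattern was most like that of Barx1 were sought by the ratio of CPM in the 413 WT cells with at least 2 Barx1 UMIs over the other 7840 WT cells, members left out. The 10 with the largest log2 ratio were Hoxb1 (5.25), Adra2a (4.09), Irs4 (3.84), Syt6 (3.69), Penk (3.65), Nwd2 (3.58), Mt3 (3.51), Sntg2 (3.33), Sbspon (3.02) and Sptssb (3.01). Their KO levels differed in direction. Hoxb1, an anterior Hox gene, fell from 0.866 to 0.260 CPM (log2 ratio -1.73, -2.30 to -1.20) and Nwd2, Syt6 and Mt3 by 1.66, 0.60 and 0.51 on the log2 scale, while Sntg2 rose by 1.38, Sptssb by 1.13 and Penk by 0.31, and Adra2a, Irs4 and Sbspon had intervals that included 0. Penk, which encodes proenkephalin, was at 11.2 CPM in WT and 13.8 in KO.

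Most partner factors of gastric, splenic and gut mesenchyme differed by less than 2-fold, though 14 of 23 were lower in KO, beside 5888 of all 14988 genes. Of 23 that passed the filter on UMIs, 1 was at least 2-fold lower in KO and 1 at least 2-fold higher (Nkx3-2, also called Bapx1, 31 and 70 UMIs, log2 ratio 1.25, 0.62 to 1.91), with a median log2 ratio of -0.053 against 0.063 over all genes. Over all genes 2.17% were at least 2-fold lower and 2.14% at least 2-fold higher. Meis2 and Nr2f2, among the partner factors with most UMIs, had log2 ratios of 0.042 and -0.25. In clusters 7 and 18, where 22 passed the filter, Six2, a factor of the pyloric region and the kidney, was lower (16.9 and 7.42 CPM, -1.19, -1.56 to -0.82) and Hand1 was higher (10.9 and 67.2 CPM, 2.63, 2.37 to 2.89), although Hand1 was lower over all cells at -0.84. Hlx, a homeobox factor of gut and liver mesenchyme, was at 42.1 and 58.8 CPM there.

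Of 23 signals and responses, Shh (138 and 20 UMIs, log2 ratio -2.71, -3.46 to -2.03), Pdgfrb (-2.60) and Wnt2 (32.1 and 11.1 CPM, -1.53, -1.62 to -1.45) were at least 2-fold lower in KO and Cyp26b1, which degrades retinoic acid, at least 2-fold higher (5.44 and 12.1 CPM, 1.16, 1.04 to 1.28), with a median of 0.017. The UMIs of Shh lay in only 18 WT and 9 KO cells, and its interval does not cover the spread between cells. Shh is the hedgehog ligand of endoderm and notochord, while its response genes Ptch1, Gli1 and Hhip had ratios of 0.51, 0.46 and 0.60. In clusters 7 and 18, Wnt2, Wnt11 and Pdgfrb were lower by at least 2-fold and Hhip was higher (12.3 and 24.98 CPM, 1.02, 0.74 to 1.31), among 21 that passed. Sfrp1 and Sfrp2, which encode secreted Wnt inhibitors known downstream of Barx1, were at 256 and 356 CPM and at 114 and 106 CPM there, with log2 ratios of 0.47 (0.41 to 0.54) and -0.11 (-0.22 to -0.00053).

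Close relatives of the members that passed the filter on UMIs showed no loss like that of Barx1, Tlx1 and Nkx2-5. Of 8 that passed the filter, 0 were at least 2-fold lower and 1, Msc, was at least 2-fold higher (3.57 and 7.18 CPM, log2 ratio 1.01, 0.86 to 1.16), with a median of 0.12. Barx2 had 83 and 124 UMIs (0.66, 0.25 to 1.08), Tlx2 1458 and 1140 (-0.28, -0.39 to -0.16) and Foxf2 2225 and 2213 (0.071). The 5 other Nkx2 genes did not pass and had too few UMIs to judge. Nkx2-2 had 11 UMIs in WT and 21 in KO. Nkx2-1, Nkx2-4, Nkx2-6 and Nkx2-9 had 1, 2, 2 and 5 UMIs in WT and 0 each in KO.

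Genes that lie next to the members in the genome were examined in the same way. Of 34 genes within 200 kb that passed the filter, 1 was at least 2-fold lower in KO and 1 at least 2-fold higher, and their median log2 ratio was 0.063, equal to that of all genes. The lower one was Kazald1, 71.4 kb from Tlx1, at 1.99 and 0.352 CPM (-2.50, -2.96 to -2.07). In clusters 7 and 18 it was at 15.8 and 0.175 CPM (-6.50, -9.56 to -4.63). In WT it had a UMI in 65 of 156 cells with Tlx1 (41.7%, 33.8 to 49.8%) against 0.766% of the others, and at 2000 UMIs in 10.2% against 0.134%. The higher one was Gm20467, 1.7 kb from Nkx2-3, with 43 and 99 UMIs (1.28, 0.75 to 1.83).

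**Figure D5:**
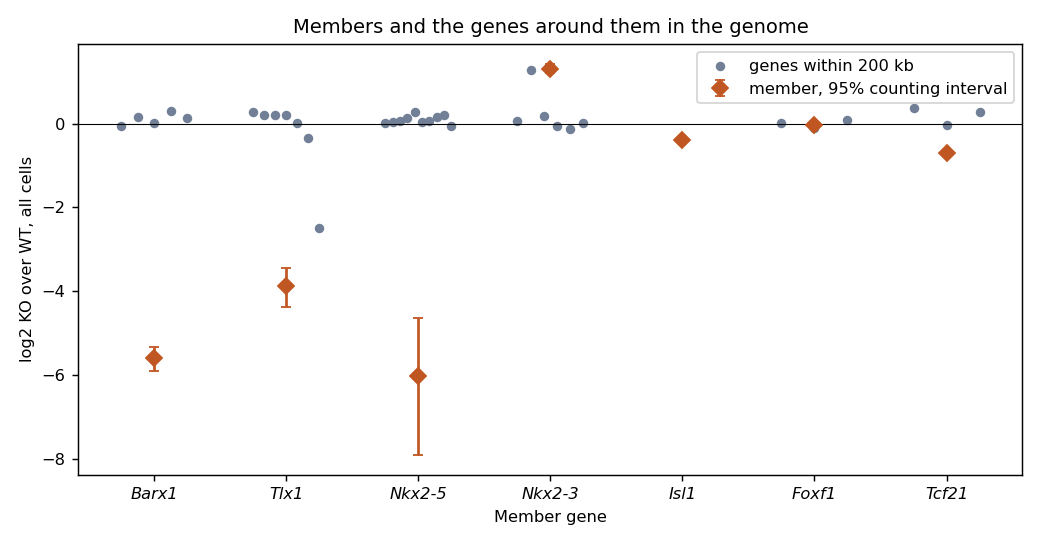
Log2 ratio of KO over WT in all cells for each factor (diamonds, with the 95% counting interval) and for genes within 200 kb of it that passed the filter on UMIs (dots, side by side with no scale of distance). The dots lie near 0 except Kazald1 at -2.50 beside Tlx1 and Gm20467 at 1.28 beside Nkx2-3.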

How the data were processed

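Single cells of whole E11 AGMs were measured in 1 WT and 1 KO library. The authors aligned the reads with Cell Ranger 3.1.0 to mm10 (GRCm38, reference 3.0.0) and deposited the raw UMI counts of every gene and barcode, 179743201 UMIs in WT and 174597654 in KO, with no normalization. Counts on the antisense strand of a gene are not assigned to it by that counter.

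Barcodes with at least 2000 UMIs and under 10% mt- UMIs were used as cells. This differs from the cell calling of the paper. No doublet caller was run, and the 5% of cells with most UMIs were left out as an alternative. Counts were summed per gene, scaled to CPM and given with exact Poisson intervals, shares with exact binomial (Clopper-Pearson) intervals and log2 ratios with exact conditional binomial intervals, all at 95%. For shares at 2000 UMIs, the chance of detection after thinning was computed from the hypergeometric distribution. Intervals cover counting error only. Clusters came from 2000 variable genes, 30 principal components, 15 neighbours and the Leiden method at resolution 1, and were named from markers. A cluster was named from a list with at least 3 markers among its leading genes by fold, if no other list had as many. All other clusters stayed unnamed, and so did clusters of very low depth with no marker among the very first of these genes. Genes with at least 100 UMIs in both libraries together were compared, and a 2-fold difference was counted.

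R 4.3.3 with edgeR 4.0.16 served for TMM factors only, and Python 3.11.15 with scikit-learn 1.9.0, python-igraph 0.11.9, leidenalg 0.10.2, pandas 2.3.3, scipy 1.17.1 and numpy 2.4.6 for the rest, and the ratios, their intervals and the thinned shares were tested on simulated data. The members and gene lists were chosen with earlier results of these data known. Genes named are the 7 members, list genes at least 2-fold different (at most 6 per direction) or else the 3 with most UMIs, and the 10 genes most enriched in WT cells with at least 2 Barx1 UMIs. The values of some genes that the rule names are not reported here. Beyond this rule, Kazald1, Gm20467, Hlx, Hand1, Six2, Wnt11, Hhip, Ptch1, Gli1, Sfrp1, Sfrp2, Pdgfra, Cspg4, Barx2, Tlx2, Foxf2 and single marker genes were named after their values were seen, and so were the clusters shown. In all, 26 alternatives were set beforehand and 5 were added later. Promoter sequences are those of RefSeq (GRCm38.p6).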

Additional observations from a re-analysis of the deposited data

Results flagged for a closer look

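Barcodes outside the cells used also held the members. Nkx2-3 stood at 11.03 CPM in KO barcodes of at most 100 UMIs (4.03 in WT), at 12.1 in those of more than 100 and under 2000 UMIs (5.90 in WT) and at 17.1 in those of at least 2000 UMIs and at least 10% mt- UMIs (6.50 in WT), so its difference was seen in all 3 classes. Foxf1 stood at 35.7 CPM in the KO barcodes with many mt- UMIs (28.1 in WT). These values lie outside the comparisons of the report.

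For 3 members the ratio of KO over WT pointed in opposite directions in different clusters, and these differences were not tested. Isl1 had a log2 ratio of 0.65 in the smooth muscle-like cluster 13, which held 35 KO cells, and of -2.06 in the erythroid-like cluster 32. The source of its UMIs in erythroid-like cells was not tested. Foxf1 had 0.86 in cluster 18 and -1.01 in cluster 9 (with Ecm1 and Wnt4 among its leading genes). Tcf21 had 0.86 in the coelomic or gonadal-like cluster 29 and -3.83 in the blood-like cluster 36, which held 18 WT and 15 KO cells.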

How the results depend on the processing

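Of 121 results under an alternative, 87 moved by less than counting error or 1.5 times, 34 moved by more and 0 were labelled reversed. That label could be given only to a KO over WT log2 ratio whose interval excluded 0. It could not be given to counts, to shares or to Foxf1, which went from -0.045 to 0.024 in 1 setting. Among single members, Nkx2-3 beside Barx1 went from a log2 ratio of 0.91 (0.67 to 1.15) to -0.33 (-0.59 to -0.076) at resolution 2. The log2 ratio of Barx1 stayed between -6.03 and -5.54, that of Tlx1 between -6.08 and -3.33, that of Nkx2-5 between -6.96 and -4.45, and that of Nkx2-3 between 1.15 and 1.75. With mt- UMIs under 5%, Nkx2-3 was at 1.75, Isl1 at -0.30, Foxf1 at -0.16 and Tcf21 at -0.64. TMM factors gave Isl1 -0.45, Foxf1 -0.11 and Tcf21 -0.77, and the mean of CPM per cell Nkx2-5 -4.45, Isl1 -0.31, Foxf1 -0.24 and Tcf21 -0.63. Without blood-like clusters Isl1 was at -0.47, Foxf1 at -0.12 and Tcf21 at -0.77. Leaving out KO cells with a Pdgfrb UMI gave Isl1 -0.48 and Foxf1 0.024, and leaving such cells out of both libraries Barx1 -6.03, Tlx1 -3.33, Nkx2-3 1.62, Isl1 -0.32, Foxf1 -0.10 and Tcf21 -0.42. Without the 5% of cells with most UMIs Tlx1 was at -4.96 and Foxf1 at -0.13. Settings chosen after seeing the data gave Isl1 -0.27 and Tcf21 -0.57 with KO clusters weighted to the WT mix, Nkx2-3 1.15, Isl1 -0.52 and Tcf21 -0.84 without clusters of under 15% KO cells, and Tlx1 -6.08 without endothelial-like clusters. The number of members higher beside Barx1 fell from 5 to 3 at resolution 2, that of KO cells with Barx1, Tlx1 or Nkx2-5 from 121 to 14 at 2 UMIs or more, and the share of KO cells among the nearest was 25.8% with 10 nearest cells and 39.3% with 15 components, beside 29.3%. The cause of these shifts was not tested. No paired analysis was possible because each genotype has 1 library. At this depth, a cell without a UMI of a member cannot be called a cell that does not express it, and with 1 library per genotype the spread between embryos is unknown.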

Other observations

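In the clusters with most Barx1 in WT, the genes with the largest increase in KO, apart from genes of the Y chromosome, Dppa5a and Gm47283, were Mab21l2 (9.88 and 177 CPM, log2 ratio 4.16, 3.91 to 4.43), Myh11 (0.755 and 13.5 CPM, 4.16, 3.24 to 5.24), Actg2 (4.68 and 78.3 CPM, 4.06, 3.69 to 4.46) and Myocd (3.02 and 40.3 CPM, 3.74, 3.27 to 4.24). Myocd encodes a coactivator of smooth muscle genes, Myh11 and Actg2 encode smooth muscle myosin and actin, and Chrm2, a muscarinic receptor of visceral muscle, was at 2.94 and 24.8 CPM (3.08, 2.59 to 3.60). Penk and Nwd2, which were among the genes most like Barx1 in WT, fell there by 1.52 and 3.19 on the log2 scale, whereas Sntg2 rose by 1.90 and Sptssb by 1.68. These genes were named after their values were seen, and with 1 library per genotype the ratios carry counting error only.

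Markers of other tissues were counted from the lists as well. Of 4 pancreas markers that passed the filter, Ctrb1 (log2 ratio 4.94) and Nkx6-1 (1.16) were at least 2-fold higher in KO, of 6 stomach and gut epithelium markers Shh (-2.71) and Cldn6 (-1.54) at least 2-fold lower, and of 4 hepatoblast markers Alb (-1.08) and Apoa1 (-1.15) lower and Ttr (1.18) higher. Some of these ratios rested on few cells. Ctrb1 had a UMI in 5 WT and 16 KO cells, Shh in 18 and 9 and Cldn6 in 25 and 23. Of 6 heart muscle markers, Tnnt2 (1.30), Myl4 (1.45) and Actn2 (1.30) were at least 2-fold higher. Skeletal muscle markers moved with them, at a sum of 87.3 CPM in WT and 141.7 in KO over all cells, and the skeletal muscle-like cluster 12 held 168 WT and 419 KO cells. Their part in the heart muscle values was not tested. Of 7 motor and sympathetic neuron markers Th (-1.21) was at least 2-fold lower, and of 2 lung markers none.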
